A study of Mus musculus with 4 samples.

Results

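Hox cluster genes are the homeodomain transcription factors of the Hoxa, Hoxb, Hoxc and Hoxd clusters, and their transcripts were compared between 2 diets in sorted mouse mammary basal cells. A gene belonged to the set if its symbol was Hox followed by a cluster letter and a paralogue number, and if the array carried at least 1 probe set for that gene and no other. This gave 33 genes on 48 probe sets, among 18193 genes on 34945 single-gene probe sets. Hoxb8 and Hoxd4 appeared only on probe sets shared with a neighbour and were left out. The rule used symbols and no measured value, although the set was chosen with earlier results of these data known.

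The 4 Affymetrix arrays came from basal mammary cells sorted and extracted fresh, a MaSC-enriched fraction that by its label contains stem cells, myoepithelial cells and their progenitors. All mice were MMTV-Wnt1-Transgenic (Wnt1-Tg) on the mixed background B66SJL/HEV/J, so the transgene, a Wnt1 ligand driven by a mammary tumour virus promoter, was present in both groups. There were 2 arrays for the control casein (CAS) diet and 2 for the soy protein isolate (SPI) diet, and no wild-type group was analysed here. No label gives an age or ties an array to an animal of its own. The p-values therefore reflect only how far these samples differed among themselves, and that spread may be technical.

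Hox proteins give cells their position along the body axis. Within each cluster the genes lie in the order of their paralogue numbers, and low numbers act towards the head and high numbers towards the tail. Paralogues are the same-numbered genes of different clusters, which descend from 1 ancestral gene and often act redundantly. In the mammary gland Hoxa9, Hoxb9 and Hoxd9 are known to be needed together for normal growth in pregnancy, and Hoxc8 is known for a role in placing the gland in the embryo.

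The clusters also encode microRNAs, and those of the miR-10 and miR-196 families (GRCm38.p6) are shown because they lie among the genes described here. Another, miR-615, lies within the span of Hoxc5 and is not shown. None has a probe set in the platform annotation used here, so their levels were not analysed. Those shown form 2 families by seed, bases 2 to 8, written in capitals. One miR-196a gene lies between Hoxb13 and Hoxb9 and the other between Hoxc10 and Hoxc9, while miR-196b lies between Hoxa9 and Hoxa10. The miR-10a gene lies within the span of Hoxb3, next to Hoxb4, and miR-10b within the spans of Hoxd3 and Hoxd4. Counted from the 5′ end, miR-196b differs from miR-196a by A12C and miR-10b from miR-10a by U12A, both outside the seed.
miR-196a-5p: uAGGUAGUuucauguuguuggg
miR-196b-5p: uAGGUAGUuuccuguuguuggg
miR-10a-5p: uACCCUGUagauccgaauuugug
miR-10b-5p: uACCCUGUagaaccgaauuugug

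The promoter of Hoxd8 is shown because Hoxd8 was 1 of only 2 Hox genes with an adjusted p under 0.1, a bound met by 8.14% of all genes, and Hoxc8, the other, had no entry in the table of promoters. The sequence is the 250 bases before the RefSeq start of Hoxd8, chr2:74704365-74704614 on the plus strand of GRCm38.p6, with each TAAT (or ATTA on the other strand), the core that homeodomain proteins bind, in capitals.
Hoxd8 upstream: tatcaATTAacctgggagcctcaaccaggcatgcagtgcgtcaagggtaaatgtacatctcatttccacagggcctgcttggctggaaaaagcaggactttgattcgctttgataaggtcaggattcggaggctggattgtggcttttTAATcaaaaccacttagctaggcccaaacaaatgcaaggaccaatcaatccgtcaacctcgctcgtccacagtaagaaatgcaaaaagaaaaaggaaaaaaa
This window held 2 TAAT cores, 1 CCAAT box and 0 TATAAA boxes, searched on both strands. A TAAT core was present in 18 of 24 Hox promoter entries (75.0%, over 22 genes) and in 54.9% of all 32851 entries. CCAAT was present in 58.3% of the Hox entries against 33.8% of all, and TATAAA in 16.7% against 12.4%. A match is a string of letters and no measured binding site.

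Values below are log2 values as deposited, in which each probe set was centred on the median of the 4 arrays. No label records that step. The values hold differences between arrays and no levels. A coarse class of the level before centring could still be read from the digits of most probe sets, and it was used only to choose among probe sets, to filter genes and to choose which are described in full. By these classes 15 of the 33 Hox genes (45.5%, against 74.9% of all genes) were at level 4 or above on the log2 scale and 18 under it. Since the classes are coarse and belong to different probes, they give no order of expression among the genes. Level 4 alone does not show that a gene was expressed, and a strong fall in a diet can lower the class.

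The Hox genes as a set showed little difference between the diets. With limma and Benjamini-Hochberg adjustment over all genes, 1 Hox gene of 33 (3.03%) passed an adjusted p of 0.05, Hoxc8, which was lower in SPI. The same call was made for 3.68% of all genes, 0.786% higher and 2.89% lower, so the count of Hox genes called was near that of the array as a whole. An unadjusted p under 0.05 was reached by 5 Hox genes, Hoxc8, Hoxd8, Hoxc9, Hoxb13 and Hoxd1, against 21.0% of all genes. The median difference, SPI minus CAS, was 0.06 over the Hox genes and 0.02 over all genes tested, with 18 Hox genes above 0 and 15 below. The Hox median had no settled direction: it was -0.03 without CAS array 1, -0.01 without SPI array 1 and -0.02 among the Hox genes at level 4 or above. Leaving out 1 array turned the sign of 2 to 8 Hox genes. The median size of a difference was 0.11 over the Hox genes and over all genes. The SPI arrays lay wholly on one side of the CAS arrays for 16 of the 33 (48.5%), 9 above and 7 below. Over all genes this held for 51.8%, 29.4% above and 22.4% below. At level 4 or above it held for 5 of the 15 Hox genes (33.3%) and 56.2% of all genes. Under level 4 it held for 11 of the 18 Hox genes (61.1%) and 38.6% of all genes.

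**Figure D1:**
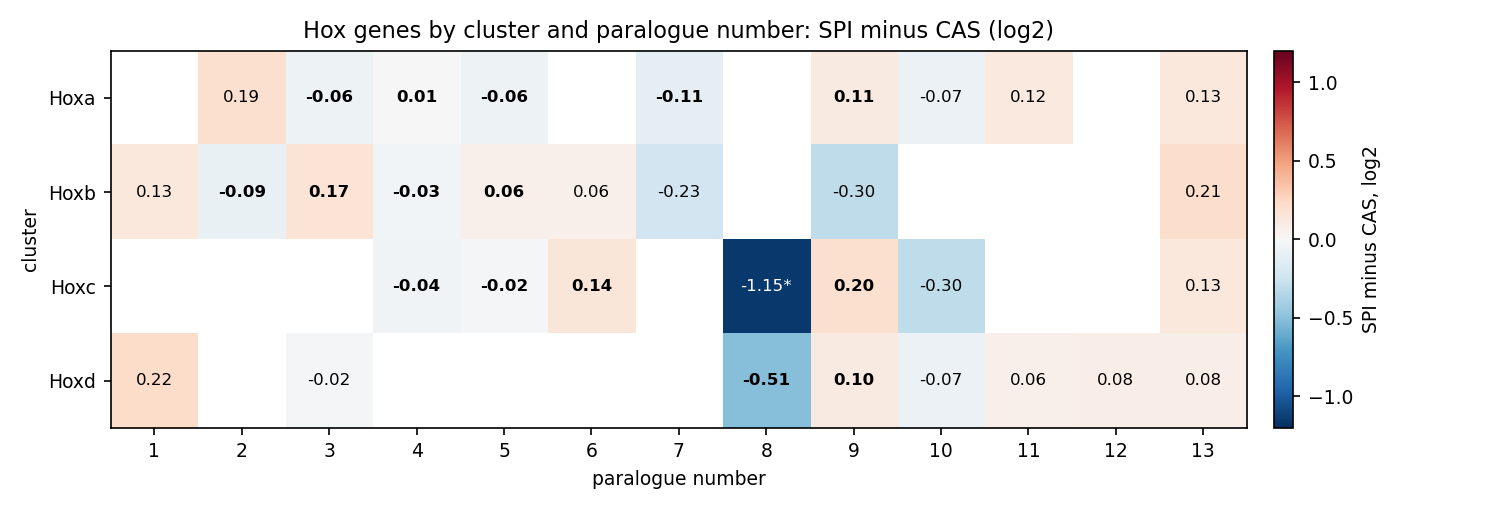
The log2 difference, SPI minus CAS, of each Hox gene by cluster (rows) and paralogue number (columns), with blue for lower and red for higher in SPI, bold values at level 4 or above, an asterisk for an adjusted p under 0.05, and cells left empty where no value is given here. Both measured genes of paralogue group 8 stand out in blue, at -1.15 and -0.51, and all other cells lie between -0.30 and 0.22.

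Hoxc8, a central gene expressed in the thoracic region of the embryo, gave the largest difference of the set. On its only probe set the CAS arrays stood at 0.404 and 0.947 and the SPI arrays at -0.553 and -0.404. Both SPI arrays were below both CAS arrays, and the CAS arrays lay farther apart than the SPI arrays. The difference of -1.15 (SE 0.19, 95% interval -1.64 to -0.67) is a 2.23-fold lower value in SPI (interval 1.59- to 3.11-fold), with a limma adjusted p of 0.0459. Only 0.715% of all genes had a difference this low or lower, and 0.962% of all genes were called with a change of at least 2-fold. The call stood close to the threshold. It was lost without any 1 of the 4 arrays, with adjusted p from 0.149 to 0.258 and a difference from -1.43 to -0.88, as were all 669 calls of the series. With probe sets in place of genes as the tested unit it was lost too, at an adjusted p of 0.0575. Hoxc8 was in the class 2 to 4, and of all genes under level 4 1.10% were called.

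Hoxd8, the other measured gene of group 8, lay lower in SPI on both of its probe sets. On the probe set in the class 4 to 8 the CAS arrays stood at 0.35 and 0.178 and the SPI arrays at -0.178 and -0.309. On the second probe set, in the class 2 to 4, they stood at 0.221 and 0.125 in CAS and at -0.125 and -0.34 in SPI. The diets did not overlap on either probe set, although both measure the same RNA on the same arrays and are not replicates. The difference on the first was -0.51 (SE 0.09, interval -0.74 to -0.27), a 1.42-fold lower value in SPI. It did not pass the test among all genes, with a limma adjusted p of 0.0591. Among genes at level 4 or above, of which 8.02% were called, its adjusted p was 0.0351.

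The genes beside these on the chromosome did not share their difference. Hoxc9 and Hoxc6, the measured neighbours of Hoxc8, had differences of 0.20 and 0.14. Hoxd9 and Hoxd3, those of Hoxd8, had 0.10 and -0.02. The third gene of group 8, Hoxb8, had no probe set of its own. On the probe set it shares with Hoxb7 the diet means differed by 0.07 and the diets overlapped, with no test, and the value cannot be assigned to either gene. No test compared group 8 with other groups, since the pattern was seen in these same data.

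Among Hox genes at level 4 or above, the 3 largest positive differences were those of Hoxc9, Hoxb3 and Hoxc6, and none passed the test after adjustment. Hoxc9, a posterior gene of group 9, stood at -0.074 and -0.075 in CAS and at 0.168 and 0.074 in SPI. Its SPI arrays were both above its CAS arrays, and the difference of 0.20 (SE 0.07, interval 0.02 to 0.37) had a limma adjusted p of 0.2. Hoxb3, an anterior gene of the hindbrain, stood at -0.059 and -0.116 in CAS and at 0.123 and 0.039 in SPI, a difference of 0.17 (SE 0.07, interval -0.01 to 0.35) with an adjusted p of 0.254. The arrays did not overlap for Hoxb3 either. Hoxc6, a central gene, stood at -0.065 and 0 in CAS and at 0 and 0.221 in SPI, where CAS array 2 and SPI array 1 met. Its difference of 0.14 (SE 0.10, interval -0.10 to 0.39) had an adjusted p of 0.453. It rested on SPI array 2, without which it was 0.03, and its sign on 1 probe set, since the mean of all 3 probe sets gave -0.04.

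The largest negative differences at this level after Hoxd8 were those of Hoxa7 and Hoxb2, both small. Hoxa7, a central gene, stood at 0.044 and 0.064 in CAS and at -0.07 and -0.044 in SPI, so the diets did not overlap. Its difference was -0.11 (SE 0.06, interval -0.27 to 0.05), with a limma adjusted p of 0.377. Hoxb2, an anterior gene, stood at 0.192 and -0.014 in CAS and at -0.018 and 0.014 in SPI. Its difference of -0.09 (SE 0.09, interval -0.32 to 0.14, adjusted p 0.626) rested on CAS array 1 and the other 3 arrays lay between -0.018 and 0.014.

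**Figure D2:**
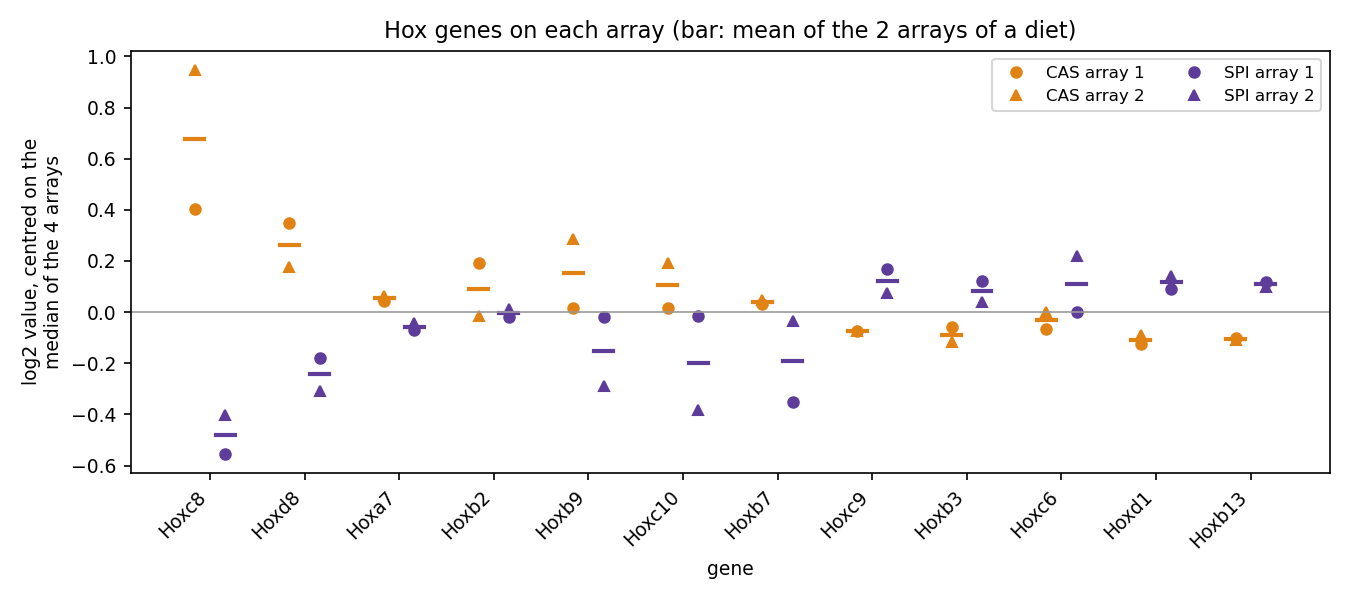
Centred log2 values on each of the 4 arrays (points, by diet and replicate) with the mean of the 2 arrays of a diet (bars), for the 7 Hox genes named by rule and 5 further genes under level 4. For Hoxc8 and Hoxd8 both SPI points lie below both CAS points, and for Hoxb2 the points of the diets overlap.

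Under level 4, where a value may be mostly background, the differences other than that of Hoxc8 ran from -0.30 to 0.22. Hoxd1, an anterior gene, stood at -0.123 and -0.091 in CAS and at 0.091 and 0.143 in SPI, a difference of 0.22 (interval 0.06 to 0.39) with a limma adjusted p of 0.143. Hoxb13, the most posterior gene of its cluster and known from the prostate and tail bud, stood at -0.1 and -0.11 in CAS and at 0.118 and 0.1 in SPI, a difference of 0.21 (interval 0.06 to 0.37, adjusted p 0.144). In both genes the arrays of a diet lay close together and the diets apart. In the other direction, Hoxb9 and Hoxc10, both posterior, each had a difference of -0.30, with adjusted p of 0.281 and 0.301. Hoxb9 stood at 0.018 and 0.285 in CAS and at -0.018 and -0.288 in SPI. Hoxc10 stood at 0.016 and 0.194 in CAS and at -0.016 and -0.383 in SPI. In both, replicate 1 of the diets lay close together and replicate 2 far apart. Hoxb7, a central gene, had a difference of -0.23 (adjusted p 0.337) that came from SPI array 1 at -0.352, with SPI array 2 at -0.033 and the CAS arrays at 0.033 and 0.046.

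By cluster, under the deposited scaling, the medians ran from -0.02 to 0.07. The 9 genes of the Hoxa cluster on chromosome 6 had the narrowest range, from -0.11 (Hoxa7) to 0.19 (Hoxa2), a median of 0.01, 5 genes above 0 and no unadjusted p under 0.05. Along this cluster Hoxa2 had 0.19, Hoxa3 -0.06, Hoxa4 0.01, Hoxa5 -0.06, Hoxa7 -0.11, Hoxa9 0.11, Hoxa10 -0.07, Hoxa11 0.12 and Hoxa13 0.13. The 9 genes of the Hoxb cluster on chromosome 11 had a median of 0.06 and ran from -0.30 (Hoxb9) to 0.21 (Hoxb13), with Hoxb1 at 0.13, Hoxb4 at -0.03, Hoxb5 at 0.06 and Hoxb6 at 0.06. The 7 genes of the Hoxc cluster on chromosome 15 had a median of -0.02 and the widest range, from -1.15 (Hoxc8) to 0.20 (Hoxc9), with Hoxc4 at -0.04, Hoxc5 at -0.02 and Hoxc13 at 0.13. The 8 genes of the Hoxd cluster on chromosome 2 had a median of 0.07 and ran from -0.51 (Hoxd8) to 0.22 (Hoxd1), with Hoxd10 at -0.07, Hoxd11 at 0.06, Hoxd12 at 0.08 and Hoxd13 at 0.08.

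By paralogue number, under the same scaling, the 7 anterior genes had a median difference of 0.13, the 12 central genes -0.04 and the 14 posterior genes 0.09. Of these, 4 anterior, 3 central and 11 posterior genes were under level 4, where a value may be mostly background. All genes of groups 10 and 13 were among them. The 4 genes of group 13 had differences from 0.08 to 0.21, but only Hoxb13 stayed above 0 whichever array was left out. Without CAS array 2 Hoxa13 had -0.03, without SPI array 1 Hoxc13 had -0.01, and without CAS array 1 Hoxd13 had -0.06. The 3 genes of group 10 were all below 0, from -0.30 to -0.07, but Hoxa10 and Hoxd10 moved above 0 when the arrays were centred on the hybridization controls. The 4 genes of group 9 were mixed, with Hoxa9 at 0.11, Hoxc9 at 0.20, Hoxd9 at 0.10 and Hoxb9 at -0.30. For Hoxa9 the arrays stood at -0.191 and 0.019 in CAS and at -0.019 and 0.062 in SPI. For Hoxd9 they stood at 0.064 and -0.163 in CAS and at -0.064 and 0.173 in SPI. Both overlapped between diets. The 3 measured genes of group 4 (0.01, -0.03 and -0.04) and the 3 of group 5 (-0.06, 0.06 and -0.02) lay within 0.1 of 0 under the deposited scaling.

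The intervals reflect the spread between these arrays under the deposited scaling. They do not cover a change of scaling, and centring on the hybridization controls moved the Hox median from 0.06 to 0.23. For the 18 genes under level 4 the values may be mostly background. The intervals are therefore no bound on the difference in RNA. The 95% interval lay within 2-fold in either direction for 32 of the 33 genes, all but Hoxc8. It lay within 1.5-fold for 29 of the 33 (87.9%, against 89.4% of all genes), the exceptions being Hoxc8, Hoxd8, Hoxb9 and Hoxc10. The median interval of a Hox gene reached 0.23 on the log2 scale to either side of its difference, against 0.20 over all genes. These intervals are not adjusted for the number of genes tested. They therefore do not give the size of difference that the adjusted test could call with 2 arrays per diet. In the test over all genes Hoxc8 was called at -1.15 (limma adjusted p 0.0459). Hoxd8 at -0.51 was not (adjusted p 0.0591), although its interval lay wholly below 0.

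**Figure D3:**
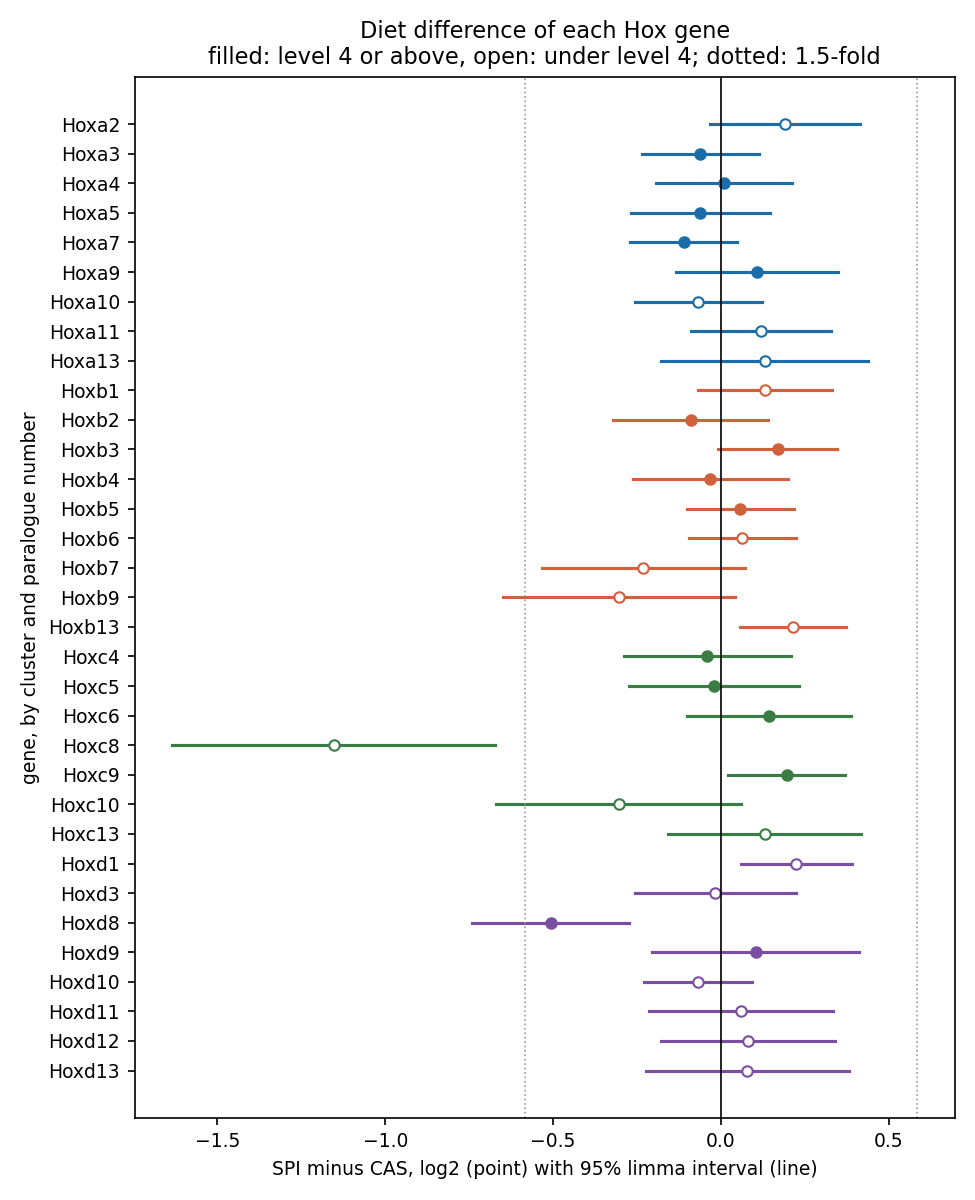
The log2 difference, SPI minus CAS, of each Hox gene (points, filled at level 4 or above, open under level 4) with its 95% limma interval (lines), ordered and coloured by cluster; dotted lines mark a 1.5-fold difference. The interval of Hoxc8 lies wholly beyond the lower dotted line, that of Hoxd8 crosses it, and those of Hoxc9, Hoxb13 and Hoxd1 lie above 0 and inside 1.5-fold.

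Of the 11 Hox genes with several probe sets, the differences had 1 sign in Hoxa4, Hoxb3, Hoxb4, Hoxd8 and Hoxd13 and both signs in Hoxa3, Hoxa5, Hoxa9, Hoxa10, Hoxc5 and Hoxc6. Hoxa9 showed the widest gap, with 0.11 on the probe set in the class 4 to 8 and -0.29 on that in the class 2 to 4. The 4 probe sets of Hoxa3 ran from -0.22 to 0.13, and the 3 of Hoxc6 from -0.20 to 0.14. For the 2 probe sets of Hoxb3 the differences were 0.08 and 0.26. Apart from Hoxd8, no gene with several probe sets had a difference beyond 0.30 on any of them.

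Related genes were read against the whole array, on which 3.68% of genes were called and 21.0% had an unadjusted p under 0.05. The TALE cofactors are homeodomain proteins that bind DNA together with Hox proteins, and 0 of the 8 measured passed the test, with 2 under an unadjusted p of 0.05 and a median difference of -0.03. Pbx3 and Meis2 had the largest differences, -0.24 and -0.20, with limma adjusted p of 0.14 and 0.225. Of the 31 Polycomb and trithorax regulators measured, the chromatin factors that keep Hox genes silent or active, 1 fell and 0 rose. An unadjusted p under 0.05 was reached by 6. The median was 0.02, with 19 genes above 0 and 12 below. The one that fell was Ezh2, the methyltransferase of Polycomb complex PRC2 and also a gene of dividing cells. Ezh2 stood at 0.245 and 0.291 in CAS and at -0.264 and -0.245 in SPI. The diets did not overlap, and the difference was -0.52 (SE 0.06, adjusted p 0.0228). Without any 1 array, and with the replicate number as a block, 0 of these 31 genes passed. Cbx7, a subunit of PRC1, had -0.37 with an adjusted p of 0.0735, while the PRC2 subunits Eed and Suz12 had 0.00 and -0.15. The next smallest p in the list were those of Pcgf1, which was higher in SPI at 0.31 (limma adjusted p 0.112), and Phc2 at -0.28 (0.127).

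Of 17 ParaHox genes and upstream regulators, among them the retinoic acid receptors that act on Hox enhancers, 0 passed, 4 had an unadjusted p under 0.05 and the median was 0.01. Rarb had -0.48 (adjusted p 0.148), Rarg -0.23 (0.227), Egr2 0.23 (0.137) and Gsx1 0.28 (0.225). Of 23 genes beside or inside the clusters 0 passed, 2 had an unadjusted p under 0.05 and the median was -0.01. Snx10, near the Hoxa cluster, had -0.36 (adjusted p 0.0754). Evx2, a homeobox gene next to Hoxd13, had 0.24 (adjusted p 0.154). Among noncoding transcripts of the clusters, Hoxb5os had -0.30 with an adjusted p of 0.254, beside Hoxb5 itself at 0.06. Of 13 adhesion and matrix genes reported as dependent on Hox proteins in other tissues, 1 fell, 0 rose, and the median was -0.02. An unadjusted p under 0.05 was reached by 5 of the 13, against 21.0% of all genes. The median size of a difference was 0.18, against 0.11 over all genes, with 6 genes above 0 and 7 below. The one that fell was Col3a1, a fibrillar collagen that is also a fibroblast marker, at -1.56 (adjusted p 0.00301). Ncam1, a neural adhesion molecule, had 0.38 (adjusted p 0.0529), and Thbs2 had -0.48 (adjusted p 0.0692).

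Markers of other cell types differed between the same arrays, with all calls below lost without any 1 array. Of 20 fibroblast markers 15 fell and 0 rose, with a median of -1.48. The list's median centred value was 0.71 on CAS array 1, 0.79 on CAS array 2, -0.71 on SPI array 1 and -0.77 on SPI array 2. Lum, Fmod and Ogn, which encode small matrix proteoglycans, had -2.32, -2.23 and -2.13. Only Twist1 lay above 0, at 0.46 (limma adjusted p 0.0559), and Dcn, Fbln1 and Prrx1 had -0.12, -0.09 and -0.12. Of 12 endothelial and pericyte markers 5 fell (median -0.68), and of 16 luminal epithelial markers 7 fell (median -0.69). Of the 13 leukocyte markers only the mast cell genes Cpa3 and Mcpt4 passed, at -1.57 and -1.71, and the median was 0.07. Of 8 adipocyte markers 3 fell, with a median of -0.15 that ran from -0.25 without CAS array 1 to -0.09 without CAS array 2. With the replicate number as a block 1 of the 8 passed, and centring on the hybridization controls left 1 higher and 1 lower with a median of 0.02. Of 8 muscle and nerve markers 0 passed (median 0.00), none of them with an unadjusted p under 0.05. Of the 15 basal markers, 14 were in the class 8 to 16, 4 rose and 0 fell (median 0.18): Krt15 at 0.73, Oxtr at 0.68, Vcan at 0.66 and Trp63, the p63 factor of basal epithelium, at 0.54. With the replicate block, or with all probe sets of a gene averaged, 2 of the 15 passed. The median was 0.11 with all probe sets averaged and 0.10 without CAS array 1. The defining keratins Krt5 and Krt14 had -0.04 and 0.23 and did not pass.

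Hoxc8 and Ezh2 thus fell on the same arrays on which fibroblast, endothelial and luminal markers fell, and Hoxd8 differed in the same direction. Their part in these results was not tested. In such bulk samples fewer cells of a type and less RNA per cell cannot be told apart. The centred values hold no levels, so no marker could be read as absent from either diet.

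**Figure D4:**
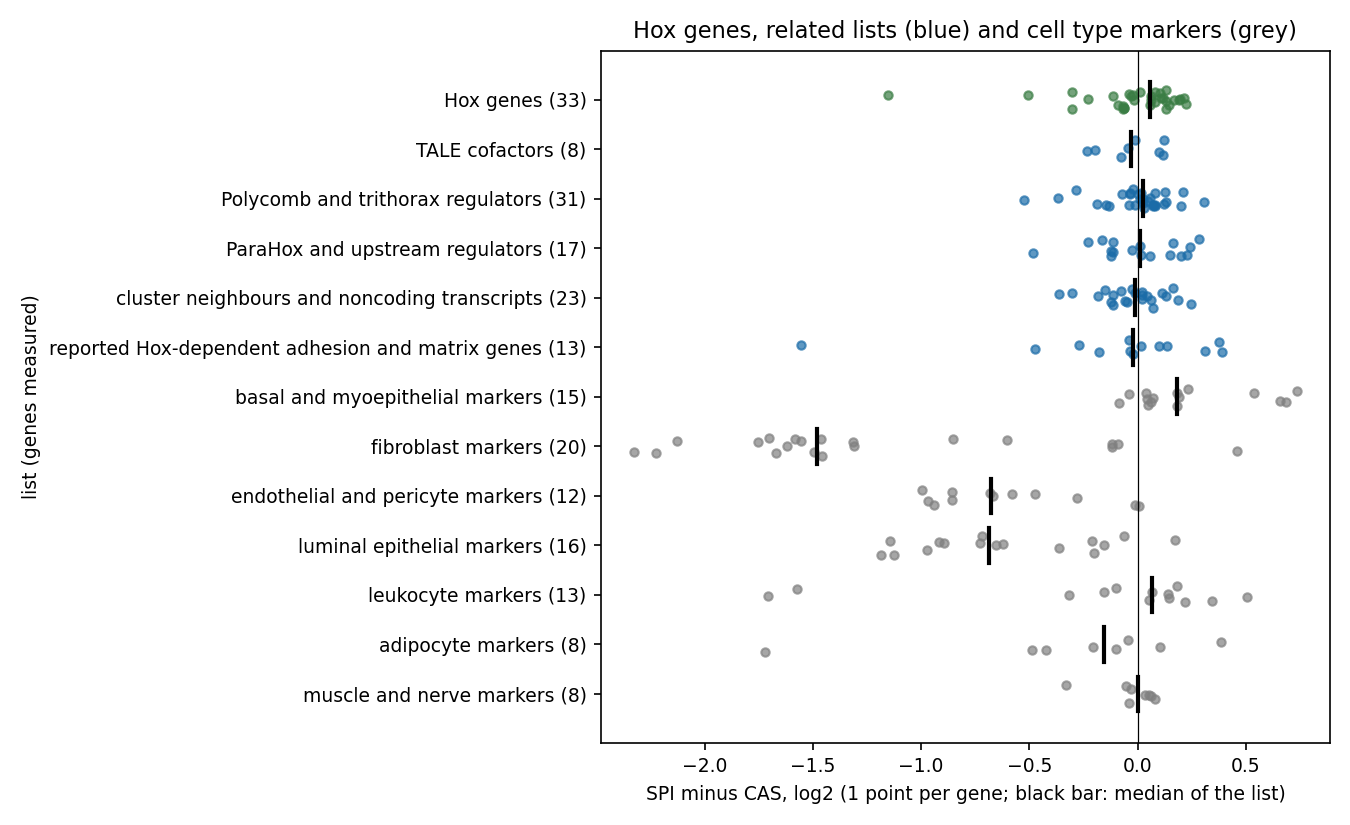
The log2 difference, SPI minus CAS, of each measured gene (points) of the Hox set, of 5 related lists (blue) and of 7 lists of cell type markers (grey), with the median of each list as a bar. The Hox genes and related lists centre near 0, while the fibroblast, endothelial and luminal lists centre at -1.48, -0.68 and -0.69.

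The direction of the small differences depended on the scaling between arrays. Centring each array on its median over all non-control probe sets turned the sign of Hoxa4 only and kept Hoxc8 as the single call. Centring on the bacterial and phage hybridization controls, themselves -0.17 lower on the SPI arrays, moved the median of all genes from 0.02 to 0.19 and that of the Hox genes from 0.06 to 0.23. It turned the sign of 10 Hox genes, after which 28 of 33 lay above 0. Under this scaling 5 Hox genes passed, Hoxc8 lower at -0.98 and Hoxa2, Hoxb13, Hoxc9 and Hoxd1 higher at 0.36, 0.39, 0.37 and 0.40, while 15.2% of all genes passed, 12.4% higher and 2.84% lower. Hoxc8, Hoxd8, Hoxb7, Hoxb9 and Hoxc10 were the 5 genes that stayed below 0 under every scaling.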

How the data were processed

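Biotin-labelled RNA from 4 samples was hybridized to Affymetrix arrays. The deposited values are log2 values made by the authors with GCOS and RMA, per the submitters' processing notes, whose versions are not named there. In the deposited log2 values the median of the 4 arrays was 0 within 5e-07 for every probe set, a centring that no label records. No genome build is named.

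Symbols came from the platform annotation and were updated through gene IDs with a GRCm38.p6 table, which matched 34741 of 34945 single-gene probe sets. The level class was read from the numeric step that the 4 values share, to within 0.1 of a step. Of the probe sets placed at 8 to 16, 16.5% had a step coarser than any level gives, so a class can be too high by chance. Probe sets of a gene were averaged within its highest class. Genes were tested, SPI minus CAS, by a two-sided limma fit (version 3.58.1, R 4.3.3, functions lmFit and eBayes) with no block, adjusted by Benjamini-Hochberg over all genes at a threshold of 0.05. The fit was run on simulated data as a check of the code, which required only that large changes be recovered. That check gives no support for differences as small as those of most Hox genes. The spread had 2 residual and 3.04 prior degrees of freedom, and the number of arrays limits the precision.

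Full values were given, by rule, for Hox genes past the threshold, those at level 4 or above with an unadjusted p under 0.05, and the 3 largest rises and falls at that level. Genes under level 4 that are described, other than Hoxc8, were chosen after their values were seen. From each related list at most 4 genes with the smallest p were named by rule. Eed, Suz12, Krt5, Krt14, Twist1, Dcn, Fbln1 and Prrx1 are named in addition. The members and lists were chosen with earlier results of these data known. No set test was used. The alternatives were a replicate block, each array left out, other scalings, other summaries of probe sets, a level filter, an ordinary t statistic and a threshold of 0.1. The replicate numbers were not taken to pair the arrays, since no label says so. Deviations from the diet means correlated at -0.0834 between CAS array 1 and SPI array 1, over genes. With 2 arrays per diet the value for CAS array 1 and SPI array 2, 0.0834, is the same with its sign turned and adds no evidence.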

Additional observations from a re-analysis of the deposited data

How the results depend on the processing

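Of the 33 Hox genes 18 lay under level 4, where the signal may be mostly background. The labels do not say that the replicate numbers pair the arrays; with them as a block, 328 genes passed in place of 669, Hoxc8 was still the only Hox gene (adjusted p 0.0381), and 0 of the Polycomb and trithorax list passed in place of 1. Without any 1 array 0 genes passed, in the whole table, the Hox set and every related list, while 2480 to 3096 genes kept an unadjusted p under 0.05. An ordinary t statistic also gave 0 calls, with 2908 unadjusted. Medians without 1 array ran from -0.0323 to 0.0499 for the Hox genes, -0.0793 to 0.0138 for TALE cofactors, -0.0267 to 0.037 for Polycomb and trithorax, -0.0327 to 0.0206 for ParaHox and upstream, -0.0533 to 0.0155 for cluster neighbours and -0.041 to 0.0638 for adhesion and matrix genes. Centred on hybridization controls, 2770 genes passed (2254 higher, 516 lower, in place of 143 and 526), and 5, 3, 3, 1 and 3 in the Hox, Polycomb, ParaHox, neighbour and adhesion sets. The medians were then 0.2293 (Hox), 0.1429 (TALE), 0.1947 (Polycomb), 0.1815 (ParaHox), 0.1605 (neighbours) and 0.1487 (adhesion). With the filter at level 4, 1093 passed (351 higher, 742 lower), of the Hox genes Hoxd8 only, with a Hox median of -0.0203, and 2 Polycomb, 1 neighbour and 3 adhesion genes. At a threshold of 0.1 there were 1481 (528 higher, 953 lower), with 2 Hox, 2 Polycomb, 1 neighbour and 3 adhesion genes. The mean of all probe sets gave a Hox median of 0 and 2 adhesion genes. With every probe set on its own the Hox set had 0 calls of 48 (8 unadjusted) and a median of 0.0164, and the adhesion list 3 calls and 0.016. Without shared-sequence probe sets the TALE median was 0.0155 and the adhesion list had 2 calls and 0.016. Under the other scalings Hoxc8 and Hoxd8 stayed lower in SPI, and Hoxd8 was lower on each of its probe sets. The remaining alternatives could not turn these signs. Some leave the difference as it is, Hoxc8 has a single probe set, and in neither gene did the diets overlap. The cause of the changes between settings was not tested.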

Other observations

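Hoxb8 and Hoxd4 were measured only on probe sets shared with a neighbouring Hox gene, and these entered no test. On the probe set of Hoxb8 and Hoxb7 the arrays stood at 0.001 and -0.082 in CAS and at 0.051 and -0.001 in SPI, and the diets overlapped. On the first probe set of Hoxd4 and Hoxd3 they stood at -0.203 and -0.026 in CAS and at 0.026 and 0.139 in SPI, with both SPI arrays above both CAS arrays. On the second they stood at -0.02 and 0.02 in CAS and at -0.057 and 0.186 in SPI, and overlapped. No share of these values can be given to either gene of a pair.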
